A study of Mus musculus with 27 samples.

Results

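Livers of mice that had carried, nursed and weaned a litter were compared, 4 weeks after weaning, with livers of nulliparous mice, which had never been pregnant. The 4 libraries from the later animals (REG_203, REG_214, REG_234 and REG_239, called regressed by the labels) were chosen by their titles, as were the 4 nulliparous libraries (NUL_220, NUL_221, NUL_226 and NUL_227), so that 8 of the 27 libraries of the study enter the comparison. All animals were wild-type mice of the inbred strain BALB/c. The mothers were bred at 10 to 12 weeks of age, litters were brought to an even size, and pups were removed after 10 to 14 days of lactation; the nulliparous animals were matched to them in age and had no litter. Each library was made from the RNA of a whole frozen and powdered liver, so fewer cells of a type and less RNA per cell cannot be told apart in any value below. The other 19 libraries came from lactation day 10 (LAC, 3 libraries) and from 2, 4, 6 and 8 days after weaning (ID2, 3; ID4, 4; ID6, 6; ID8, 3), and they entered the same statistical fit.

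The liver enlarges during pregnancy and lactation, when it supplies nutrients for milk, and it shrinks again once the pups are weaned. Growth of an adult liver can involve hepatocytes that re-enter the cell cycle. Entry into mitosis is driven by cyclin-dependent kinase 1, and exit from it by the anaphase-promoting complex with its activator Cdc20. Hepatocytes also differ along the liver lobule, from the periportal zone, where blood enters, to the pericentral zone, where it leaves, and many of their P450 enzymes and transporters differ between the sexes under the control of growth hormone.

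The 8 libraries held 59402998 to 71253166 estimated counts each. Levels are given as CPM, counts scaled to a common library size, and TPM, which also allows for gene length, is used wherever genes are compared with each other. Among 16428 genes tested, 14 passed a Benjamini-Hochberg adjusted p under 0.05 in edgeR's quasi-likelihood test, 0.0852% of the genes, and these are the genes described as having risen or fallen. Of them 4 had risen (0.0243%) and 10 had fallen (0.0609%). At an unadjusted p under 0.05 there were 1178 genes (7.17%), of which 632 were higher (3.85%) and 546 lower (3.32%), where chance alone gives about 821. The median log2 fold change over all genes was 0.00, and the median SD of a gene's log2 CPM was 0.202 among the nulliparous and 0.217 among the regressed libraries. The number of called genes depended on single libraries and on the tool: it was 4 without REG_203, 8 without REG_239, 26 without NUL_221 and 32 without NUL_220, it was 69 with DESeq2, and it was 1, Cdc20, when only these 8 libraries were fitted. Higher genes made up 28.6% of the calls in edgeR, 75% of 8 calls in limma on log2(TPM + 1), and 44.4% of 9 calls with the effective gene length as an offset. On log2(TPM + 1) the calls of Hmmr, Cdk1, Kif20a, Ckap2, Nek2, Arhgef39, Ddx11 and Lrp11 were lost, and with the length offset those of Cdk1, Ckap2, Nek2, Arhgef39, Ddx11 and Lrp11.

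**Figure D1:**
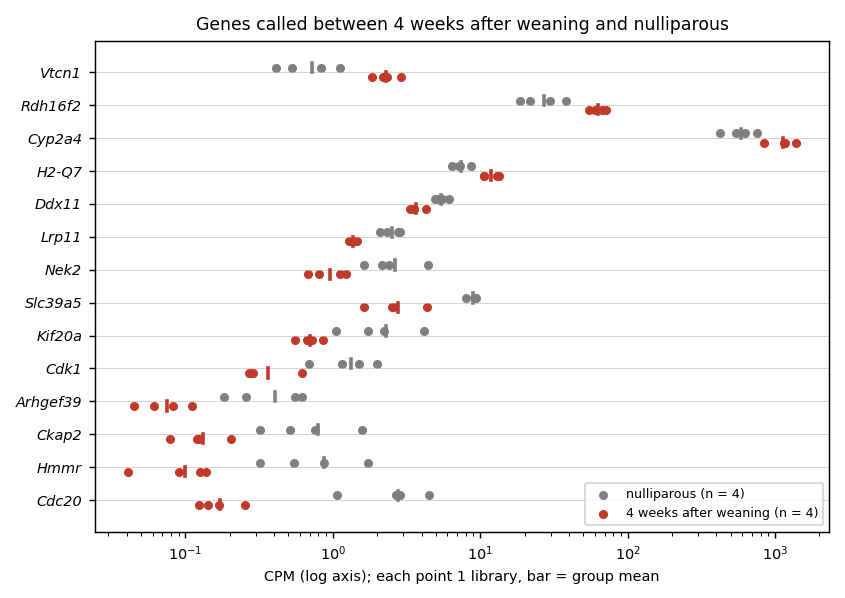
CPM on a log axis of the 14 genes that passed the adjusted threshold, with 1 point for each library and a bar at the group mean (grey nulliparous, red 4 weeks after weaning, n = 4 each). The 2 groups do not overlap for any of the 14 genes, and the widest separation is that of Cdc20, at 1.07 to 4.50 CPM against 0.123 to 0.256 CPM.

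Of the 10 genes that had fallen, 5 belong to the list of cell cycle and mitosis genes described below, and among the 14 called genes Cdc20 had the largest change. Cdc20 (ENSMUSG00000006398, GRCm38 chr4:118432901-118437352, minus strand) was at 2.70, 1.07, 4.50 and 2.84 CPM in the nulliparous libraries and at 0.256, 0.170, 0.143 and 0.123 CPM in the regressed ones. The lowest nulliparous library was thus above the highest regressed library. The means were 2.78 ± 1.40 and 0.173 ± 0.0584 CPM (SD, n = 4 each), 15.9-fold lower, with -3.99 ± 0.51 as the log2 fold change (SE; edgeR adjusted p 4.03e-04). Counts behind these levels were 70 to 283 per nulliparous library and 9 to 17 per regressed library. The call held without each of the 8 libraries in turn and in each of the 13 other fits tried.

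Hmmr, a protein of the mitotic spindle that also binds hyaluronan (ENSMUSG00000020330, GRCm38 chr11:40701395-40733422, minus strand), was at 0.867, 0.320, 1.73 and 0.547 CPM in nulliparous libraries and at 0.0902, 0.139, 0.127 and 0.0411 CPM in regressed libraries. It was lower by 3.12 ± 0.49 on the log2 scale, that is it fell by 8.68-fold (edgeR adjusted p 0.00318), and its regressed counts were only 3 to 9 per library. Cdk1, the kinase that starts mitosis (ENSMUSG00000019942, GRCm38 chr10:69335146-69352938, minus strand), was at 1.504, 0.686, 1.99 and 1.16 CPM against 0.286, 0.278, 0.269 and 0.616 CPM. The highest regressed value of Cdk1, in REG_239, lay just under the lowest nulliparous one, in NUL_221. Its log2 fold change was -1.86 ± 0.31 (edgeR adjusted p 0.00466, and 0.0540 without REG_203).

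The promoters of some mitotic genes are shown as background, since many genes of this kind share sequence elements. The windows run from 220 bases before to 20 after the RefSeq transcript start, in the RefSeq sequence of GRCm38.p6, read 5′ to 3′ on the strand of the gene. Capitals mark the letters TTTGAA (or TTCAAA on the other strand), known as the cell cycle genes homology region and bound in quiescent cells by the DREAM complex, and the letters CCAAT (or ATTGG), the box bound by NF-Y. The windows are chr4:118437324-118437563 (minus strand) for Cdc20, chr11:40733418-40733657 (minus) for Hmmr, chr10:69352893-69353132 (minus) for Cdk1 and chr1:191821253-191821492 (plus) for Nek2.
Cdc20: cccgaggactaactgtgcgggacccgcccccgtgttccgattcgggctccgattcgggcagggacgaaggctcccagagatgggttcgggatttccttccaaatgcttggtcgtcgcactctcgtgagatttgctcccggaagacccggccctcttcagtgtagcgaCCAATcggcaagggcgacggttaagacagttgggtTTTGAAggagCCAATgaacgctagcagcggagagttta
Hmmr: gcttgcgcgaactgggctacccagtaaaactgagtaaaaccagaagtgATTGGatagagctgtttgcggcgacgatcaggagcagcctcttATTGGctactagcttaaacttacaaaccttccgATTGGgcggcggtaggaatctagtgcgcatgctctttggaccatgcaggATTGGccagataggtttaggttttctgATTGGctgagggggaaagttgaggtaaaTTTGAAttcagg
Cdk1: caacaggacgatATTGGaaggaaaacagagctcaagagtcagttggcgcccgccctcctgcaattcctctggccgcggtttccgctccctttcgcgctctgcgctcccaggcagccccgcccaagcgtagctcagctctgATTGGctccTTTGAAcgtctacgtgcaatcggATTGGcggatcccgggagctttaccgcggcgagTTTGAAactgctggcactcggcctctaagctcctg
Nek2: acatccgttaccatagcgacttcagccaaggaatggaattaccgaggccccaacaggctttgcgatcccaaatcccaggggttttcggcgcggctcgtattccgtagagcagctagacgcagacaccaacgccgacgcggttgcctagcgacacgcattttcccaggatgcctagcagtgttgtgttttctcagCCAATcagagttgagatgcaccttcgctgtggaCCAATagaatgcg

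The Cdc20 window held 1 TTTGAA and 2 CCAAT, the Hmmr window 1 and 5, the Cdk1 window 2 and 3, and the Nek2 window 0 and 2. Over a fixed list of 50 cell cycle and mitosis genes, 41 were matched in the RefSeq promoter table, with 44 windows of 300 bases. Of these windows 75% held TTTGAA on either strand, against 17.9% of all 32851 windows of that length and 12.7% of the windows of genes tested here. Among the 9 windows of the genes that had fallen 44.4% held it, those of Cdc20, Hmmr, Cdk1 and Ckap2. The windows of Nek2, Arhgef39, Slc39a5 and Lrp11 did not hold it, and Kif20a and Ddx11 were not matched. CCAAT on either strand was in 75% of the 44 windows and in 37.4% of all windows, and both motifs were in 65.9% and 6.95%. Windows of the DNA replication list held TTTGAA in 8.57% and those of the ribosomal protein list in 6.00%. These are matches of letters, not measured binding. The share of a fixed list comes from its sequences alone and does not depend on the levels measured here.

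The other called genes with roles in mitosis were Kif20a, Ckap2 and Nek2. Kif20a, a kinesin of the last step of cell division (ENSMUSG00000003779), was at 2.22, 1.05, 4.17 and 1.75 CPM in nulliparous and at 0.556, 0.725, 0.856 and 0.671 CPM in regressed libraries, 3.27-fold lower (edgeR adjusted p 0.0131). Ckap2, a microtubule protein of the spindle (ENSMUSG00000037725), was at 0.759, 0.320, 1.57 and 0.517 CPM against 0.120, 0.123, 0.0792 and 0.205 CPM, 5.87-fold lower (edgeR adjusted p 0.0172). Nek2, a kinase that separates the centrosomes (ENSMUSG00000026622), was at 1.63, 2.41, 4.41 and 2.14 CPM against 0.812, 0.679, 1.13 and 1.23 CPM, 2.74-fold lower (edgeR adjusted p 0.0300). For each of these genes the highest nulliparous library was NUL_226.

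Arhgef39, a guanine nucleotide exchange factor (ENSMUSG00000051517), was at 0.623, 0.259, 0.557 and 0.182 CPM against 0.0451, 0.0617, 0.111 and 0.0821 CPM, 5.31-fold lower (edgeR adjusted p 0.0227), with 3 to 7 counts per regressed library. Ddx11, a DNA helicase needed for cohesion of sister chromatids (ENSMUSG00000035842), had the smallest change of the 10: 5.46 ± 0.535 against 3.70 ± 0.417 CPM (SD, n = 4 each), or -0.56 ± 0.11 on the log2 scale (edgeR adjusted p 0.0300). These later calls were less stable than those of Cdc20 and Hmmr when 1 library was left out. The call was lost in 3 of 8 such fits for Kif20a (without NUL_226, REG_203 or REG_239; largest edgeR adjusted p 0.0938) and in 4 for Ckap2 (without NUL_226, REG_203, REG_214 or REG_234; 0.111). It was lost in 5 fits for Nek2 (without NUL_226 or any of the regressed libraries; 0.229) and in 5 for Arhgef39 (without NUL_220, NUL_226, REG_203, REG_214 or REG_239; 0.143). It was lost in 6 for Ddx11 (all except those without NUL_220 or REG_214; 0.168), and also with no filter on low counts (0.0891).

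Most genes of the cell cycle and mitosis list had lower levels in the regressed group, called or not. Of its 50 genes 49 had a log2 fold change below 0, against 49.0% of all genes tested. The median was -0.86, and -0.23 on log2(TPM + 1). At an unadjusted p under 0.05, 31 were lower and 0 higher, where the background is 3.32% and 3.85%. In 22 of the 50 the regressed libraries lay wholly below the nulliparous ones in CPM, against 1.67% of all genes tested. Called genes were 5 in edgeR, 17 in DESeq2 and 1 in limma on log2(TPM + 1), and in edgeR they were 2 without REG_203, 3 without NUL_226, 3 without REG_239 and 12 without NUL_221. The number lower at an unadjusted p under 0.05 stayed between 29 and 32 without each library in turn.

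**Figure D2:**
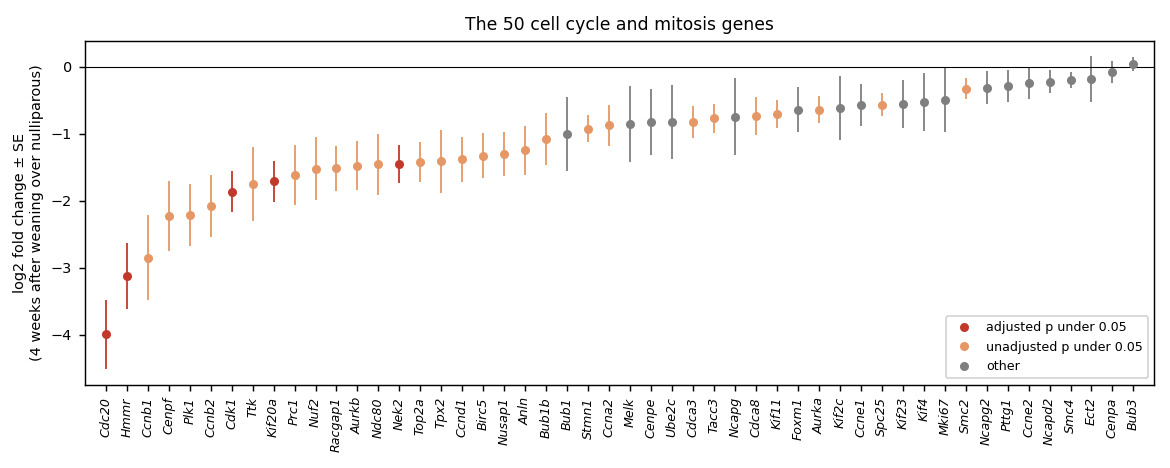
Log2 fold change (points) ± SE (bars) of the 50 cell cycle and mitosis genes, 4 weeks after weaning over nulliparous, ordered by size. All points except Bub3, whose sign differed between fits, lie below 0, from -3.99 for Cdc20 to 0.05 for Bub3, and 5 are coloured as past the adjusted threshold.

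Among members that missed the adjusted threshold, Plk1 and Racgap1 were chosen after their values were seen. Plk1, a kinase of mitotic progression, was at 0.921, 0.427, 1.43 and 0.973 CPM in nulliparous and at 0.0601, 0.154, 0.301 and 0.287 CPM in regressed libraries (edgeR adjusted p 0.0559). Top2a, the topoisomerase that untangles sister chromatids, was at 1.81 to 4.44 CPM against 0.812 to 1.31 CPM (edgeR adjusted p 0.0657). Stmn1, which destabilises microtubules, was at 2.99 to 5.16 against 1.53 to 2.72 CPM (edgeR adjusted p 0.0709), and Racgap1, which acts in cytokinesis, at 1.08 to 2.12 against 0.324 to 0.725 CPM (edgeR adjusted p 0.0709). Mki67, the gene of the common proliferation marker Ki-67, chosen here after its values were seen, was at 2.07 to 7.35 CPM against 2.14 to 4.15 CPM, and its log2 fold change of -0.49 ± 0.48 did not pass (edgeR adjusted p 0.955) and was -0.06 without NUL_226.

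A list score, the mean over members of log2 CPM minus the nulliparous mean of each gene, was 0.0126, -0.477, 0.630 and -0.165 in the nulliparous libraries for the cell cycle list and -1.33, -1.16, -0.992 and -0.860 in the regressed ones. The groups did not overlap, and the nulliparous libraries were more spread out than the regressed ones. The same score over all genes tested ran from -0.0534 to 0.0342 and from -0.0970 to 0.0421. Over the stages, the mean score of the cell cycle list was 1.62 at LAC, 0.02 at ID2, -0.26 at ID4, -0.63 at ID6, -0.90 at ID8 and -1.09 in the regressed livers.

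Genes of DNA replication and repair, which copy the genome before division, were also mostly lower. Of 40 genes 33 had a log2 fold change below 0, the median was -0.20, and 1 gene, Ddx11, was called. On log2(TPM + 1) 28 were below 0, with a median of -0.05 and no call in limma. At an unadjusted p under 0.05, 9 were lower and 1 was higher in edgeR, where the background is 3.32% and 3.85%, and without REG_203 the 9 became 6. Mcm6, a subunit of the replicative helicase, was at 1.40 to 1.98 against 0.664 to 1.35 CPM, without overlap (log2 fold change -0.87 ± 0.25, edgeR adjusted p 0.248). E2f1, a transcription factor of the G1/S transition, stood at -0.77 ± 0.24 in log2 fold change (edgeR adjusted p 0.309). Mcm10, a replication initiation factor, went the other way, at 6.71 to 15.3 against 10.3 to 22.02 CPM (0.87 ± 0.28, edgeR adjusted p 0.356), with overlapping groups.

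Slc39a5 was the called zinc gene. Slc39a5 (ENSMUSG00000039878, GRCm38 chr10:128395931-128401229, minus strand) encodes ZIP5, an importer of zinc at the plasma membrane. It was at 9.34, 9.19, 9.16 and 8.03 CPM in nulliparous libraries, a narrow range, and at 2.56, 1.62, 2.54 and 4.38 CPM in regressed libraries. The means were 8.93 ± 0.607 and 2.77 ± 1.16 CPM (SD, n = 4 each), 3.21-fold lower, or -1.68 ± 0.23 on the log2 scale (edgeR adjusted p 4.03e-04), and counts were 528 to 689 and 105 to 320 per library. The call held without each library in turn (largest edgeR adjusted p 0.00566, without REG_203). It was lost when only these 8 libraries were fitted (0.199).

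The other zinc genes lay on both sides of 0. Of 23 zinc transporters and metallothioneins tested, 14 had a log2 fold change below 0 and 9 above, and the median was -0.02, with its sign turned when the number of runs was in the fit (0.01) or without REG_234 (0.02). Slc39a5 was the only member called. Slc39a2, another zinc importer of the same family, was at 0.772, 0.732, 1.48 and 1.17 CPM against 0.165, 0.602, 0.665 and 0.479 CPM, again without overlap (log2 fold change -1.12 ± 0.36, edgeR adjusted p 0.337). The metal-binding metallothioneins Mt1 and Mt2 had log2 fold changes of -0.99 ± 0.45 and -1.24 ± 0.73, with overlapping groups (edgeR adjusted p 0.661 and 0.818). The value of Mt2 rested on NUL_221, without which it was -0.10. Slc39a14, which encodes the importer ZIP14, was at 202.2 ± 8.48 CPM against 202.5 ± 8.53 CPM (SD, n = 4 each), a log2 fold change of 0.00 ± 0.11 whose sign differed between fits. In TPM, Slc39a14 stood at 86.1 in nulliparous liver, far above Slc39a5 at 7.04.

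Enzymes of steroid and retinoid metabolism were among the genes that had risen. Cyp2a4, a steroid hydroxylase expressed more in livers of females (ENSMUSG00000074254, GRCm38 chr7:26307169-26315088, plus strand), was at 545, 426, 621 and 756 CPM in nulliparous and at 1386, 1176, 845 and 1148 CPM in regressed libraries. The groups did not overlap, the means were 587 ± 138 and 1139 ± 223 CPM (SD, n = 4 each), and the log2 fold change was 0.96 ± 0.16, a 1.94-fold increase (edgeR adjusted p 0.00808, and 0.0764 without REG_203). Counts of Cyp2a4 were not whole in any of the 8 libraries, since its reads are partly shared with near-identical genes, so its level depends on how RSEM divided them. Its paralog Cyp2a5 was at 240 to 781 CPM against 403 to 716 CPM (0.29 ± 0.31, from 0.07 without NUL_221 to 0.65 without NUL_220, edgeR adjusted p 0.969), with overlapping groups.

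Rdh16f2, of the retinol dehydrogenase 16 family (ENSMUSG00000074639, GRCm38 chr10:127866474-127877317, plus strand), was at 38.1, 18.6, 21.9 and 29.8 CPM in nulliparous and at 70.9, 66.7, 60.4 and 54.4 CPM in regressed libraries. It had risen by 2.33-fold, 1.22 ± 0.21 on the log2 scale (edgeR adjusted p 0.0184). The call was lost without NUL_226 (0.0938), REG_203 (0.0904) or REG_214 (0.0572). Its neighbour Rdh16, with counts that were not whole, was at 44.3 to 54.2 CPM against 46.3 to 68.3 CPM (0.25 ± 0.12, or 0.16 without REG_234 or REG_239, edgeR adjusted p 0.697).

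Both of these called enzymes belong to a list of 36 female-biased genes of the growth hormone pattern, of which 26 were above 0 in log2 fold change (50.9% of all genes tested were) and 10 below, with a median of 0.14 (0.06 without NUL_221, 0.24 without NUL_220). At an unadjusted p under 0.05 in edgeR, 6 were higher and 1 lower, against 3.85% and 3.32% of all genes tested. Members ranged from -1.47 to 1.61. Hamp2, a paralog of the iron hormone hepcidin, was at 342, 108, 133 and 118 CPM in nulliparous and at 551, 461, 413 and 668 CPM in regressed libraries, without overlap, and missed the threshold (log2 fold change 1.58 ± 0.34, edgeR adjusted p 0.0727). Without 1 library its edgeR adjusted p ran from 0.00211 (without NUL_220) to 0.260 (without NUL_226). Atp6v0d2, a subunit of the proton pump V-ATPase, was at 3.12 to 4.46 against 5.45 to 7.15 CPM (0.81 ± 0.22, edgeR adjusted p 0.239), and Cyp2b9, a female-biased P450, at 439 to 487 against 506 to 660 CPM (0.32 ± 0.11, edgeR adjusted p 0.387). The list score was -0.167 to 0.135 against 0.0797 to 0.390, with overlapping groups. Of 27 male-biased genes 18 were below 0, with a median of -0.11 and no call (edgeR, DESeq2 and limma), and 1 was higher and 1 lower at an unadjusted p under 0.05, where the background is 3.85% and 3.32%. The male-biased median was -0.18 without REG_203, -0.17 without REG_234 and -0.05 on log2(TPM + 1), and 0 were lower at that p without NUL_221 and 2 without REG_234.

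Among 21 genes of retinoid metabolism 16 were above 0, with a median of 0.05, and Rdh16f2 was the only call. Without REG_203, 12 were above 0, the median was 0.01 and none was called in edgeR. At an unadjusted p under 0.05, 3 were higher with all libraries and without REG_203, 6 without REG_214, and 1, with 1 lower, without NUL_221. The median was 0.16 without NUL_226, 0.13 without REG_214 and 0.07 without NUL_220. The next members by p were Dhrs9, a dehydrogenase of retinol and steroids, at 2.07 to 4.85 against 4.6 to 6.57 CPM (0.69 ± 0.27, edgeR adjusted p 0.549), and Cyp26a1, which breaks down retinoic acid. Cyp26a1 was at 4.03 CPM in REG_203 and at 0.460 to 1.297 CPM in the other regressed libraries, against 0.541 to 0.851 CPM in nulliparous ones (edgeR adjusted p 0.619). The list score was -0.0725 to 0.0560 against 0.0815 to 0.461, without overlap, and the highest value was again that of REG_203.

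Immune genes supplied the remaining calls that were higher. Vtcn1 (ENSMUSG00000051076, GRCm38 chr3:100825459-100896922, plus strand) encodes B7-H4, a membrane ligand that restrains T cells. It was at 0.529, 1.13, 0.414 and 0.836 CPM in nulliparous and at 1.83, 2.19, 2.90 and 2.33 CPM in regressed libraries, which did not overlap. The means were 0.727 ± 0.322 and 2.31 ± 0.443 CPM (SD, n = 4 each), a 3.18-fold increase, 1.67 ± 0.23 on the log2 scale (edgeR adjusted p 4.03e-04). Counts were 26 to 74 and 122 to 183 per library. The call held without each library in turn (largest edgeR adjusted p 0.00468, without REG_234) and was lost only in the fit of the 8 libraries alone (0.237) among 13 other fits.

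H2-Q7, a non-classical class I molecule of the major histocompatibility complex (MHC; ENSMUSG00000060550, GRCm38 chr17:35439155-35443773, plus strand), was at 8.67, 7.22, 7.30 and 6.43 CPM against 13.35, 10.5, 10.6 and 13 CPM. It had risen by 1.604-fold (log2 fold change 0.68 ± 0.13, edgeR adjusted p 0.0210). Its counts were not whole in any of the 8 libraries, and reads may have been divided differently between it and H2-Q6, which was at 8.91 to 12.3 against 11.4 to 17.4 CPM (0.42 ± 0.17, edgeR adjusted p 0.567). The call of H2-Q7 was lost without NUL_226, NUL_227, REG_203 or REG_239 (largest edgeR adjusted p 0.122, without REG_203). In the list of 25 genes of MHC class I and antigen processing, 23 were above 0, with a median of 0.18 (0.10 without REG_203). The list score was -0.0744 to 0.185 against 0.0162 to 0.415, with overlapping groups. Between the 1-run libraries the score differed by -0.0557 and between the 2-run libraries by 0.477, a division described further on.

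Both antibody genes named here were higher in each regressed library without passing the adjusted threshold. Igkc, the constant part of the kappa light chain, was at 3.83, 4.48, 6.30 and 6.52 CPM in nulliparous and at 15.03, 7.64, 8.13 and 7.62 CPM in regressed libraries (log2 fold change 0.86 ± 0.21, or 0.56 without REG_203, edgeR adjusted p 0.131). Iglv1, a variable segment of the lambda light chain, was at 0.149, 0.213, 0.271 and 0.0912 CPM against 0.752, 0.725, 0.428 and 0.657 CPM (1.82 ± 0.48, edgeR adjusted p 0.176). Over the 26 tested markers of B and plasma cells 19 were above 0, the median was 0.24, and 0 were called in edgeR, 2 in DESeq2 and 0 in limma on log2(TPM + 1), with 4 higher at an unadjusted p under 0.05 (3.85% of all genes). The median depended on single libraries, being 0.09 without NUL_220 or REG_234 and 0.15 without REG_239, and 0.42 without NUL_226 and 0.40 without REG_214. On log2(TPM + 1) it was 0.05. Their summed level was 364 to 421 CPM against 376 to 554 CPM. For T and NK cells the sum of TPM was 26.4 to 35.2 against 30.9 to 43.0 TPM, with 27 of 34 markers above 0 (20 without NUL_227), and for Kupffer cells and macrophages it was 709 to 797 against 730 to 810 TPM, with a median log2 fold change of 0.01 whose sign differed between fits. The part of cell content in the levels of Vtcn1 and H2-Q7 was not tested.

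Lrp11, a receptor-related protein of the low density lipoprotein receptor family (ENSMUSG00000019796, GRCm38 chr10:7589800-7625483, plus strand), was the last gene that had fallen. It was at 2.86, 2.77, 2.10 and 2.33 CPM against 1.32, 1.297, 1.43 and 1.45 CPM, 1.83-fold lower (log2 fold change -0.87 ± 0.17, edgeR adjusted p 0.0227). The regressed values lay within a narrow range. The call was lost in 6 of 8 fits, all except those without NUL_226 or NUL_227 (largest edgeR adjusted p 0.110, without REG_203).

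The stages in between place these levels. Each stage is compared with the same nulliparous libraries, so the comparisons below share them. Called genes were 11.2% of the genes tested at LAC, 3.24% at ID2, 4.25% at ID4, 1.08% at ID6 and 0.499% at ID8 against nulliparous. Regressed livers had 11.7% called against LAC, 2.56% against ID2, 4.33% against ID4, 1.69% against ID6 and 0.0487% against ID8.

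Vtcn1 and Cyp2a4 were called above nulliparous at every stage tested. Vtcn1 was at 3.57 ± 0.846 CPM at LAC, 2.12 ± 0.236 at ID2, 2.03 ± 0.214 at ID4, 1.85 ± 0.251 at ID6 and 1.97 ± 0.381 at ID8 (SD over the libraries of each stage), and the regressed level of 2.31 CPM was called against none of these (smallest edgeR adjusted p 0.0773, against LAC). Cyp2a4 had means of 1447 CPM at LAC, 1238 at ID2, 1173 at ID4, 1170 at ID6 and 1227 at ID8, and its regressed mean of 1139 CPM was called against none of them either (smallest edgeR adjusted p 0.215). Rdh16f2 stood at 118 CPM at LAC, 111 at ID2, 128 at ID4, 96.3 at ID6 and 84.1 at ID8, each called above nulliparous. Its regressed mean of 63.1 CPM was called below LAC and ID4 (edgeR adjusted p 0.0101 and 0.00639), so Rdh16f2 lay between the lactation and nulliparous levels.

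Slc39a5 was lower at each later stage from lactation to ID6. Its mean was 7.27 ± 1.3 CPM at LAC (edgeR adjusted p 0.504 against nulliparous), 5.32 ± 0.348 at ID2 (0.0921), 3.33 ± 0.505 at ID4 (4.85e-04), 2.36 ± 0.618 at ID6 (1.90e-06) and 3.30 ± 0.946 at ID8 (0.00645). The regressed level of Slc39a5 was called below LAC (edgeR adjusted p 3.12e-04) and ID2 (0.0371) and not against the later stages. The level was thus low at each stage from 4 days after weaning on.

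Cdc20 had the opposite course first: 14.5 ± 2.80 CPM at LAC, called above nulliparous (edgeR adjusted p 9.59e-04), then 1.26 ± 0.902 at ID2, 0.703 ± 0.268 at ID4, 0.728 ± 0.315 at ID6 and 0.726 ± 0.124 at ID8. Its regressed level of 0.173 CPM was called below LAC, ID2, ID4 and ID6 (edgeR adjusted p 8.91e-08, 0.00608, 0.0302 and 0.0344) and not below ID8 (0.241). Cdk1 was at 5.12 CPM at LAC, 1.34 at ID2, 1.29 at ID4, 0.862 at ID6 and 0.671 at ID8, and at 0.362 CPM in the regressed group it was called below the first 4 of these. Hmmr was at 4.47, 0.603, 0.465, 0.250 and 0.172 CPM in the same order, and its regressed level of 0.0992 CPM was called below LAC, ID2 and ID4. For these 3 genes the regressed mean was the lowest of the 7 stages.

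H2-Q7 and Lrp11 followed another course. H2-Q7 was at 8.70 CPM at LAC, 7.06 at ID2 and 7.94 at ID4, levels not called against nulliparous, then at 12.4 at ID6 (edgeR adjusted p 7.16e-04), 10.7 at ID8 (0.0778) and 11.9 in the regressed group. Lrp11 was at 4.37 CPM at ID2, called above nulliparous (edgeR adjusted p 0.00946), and at 1.36 CPM at ID6, called below (0.00123). It was at 2.36 CPM at ID8, where it was not called against nulliparous (edgeR adjusted p 0.879).

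**Figure D3:**
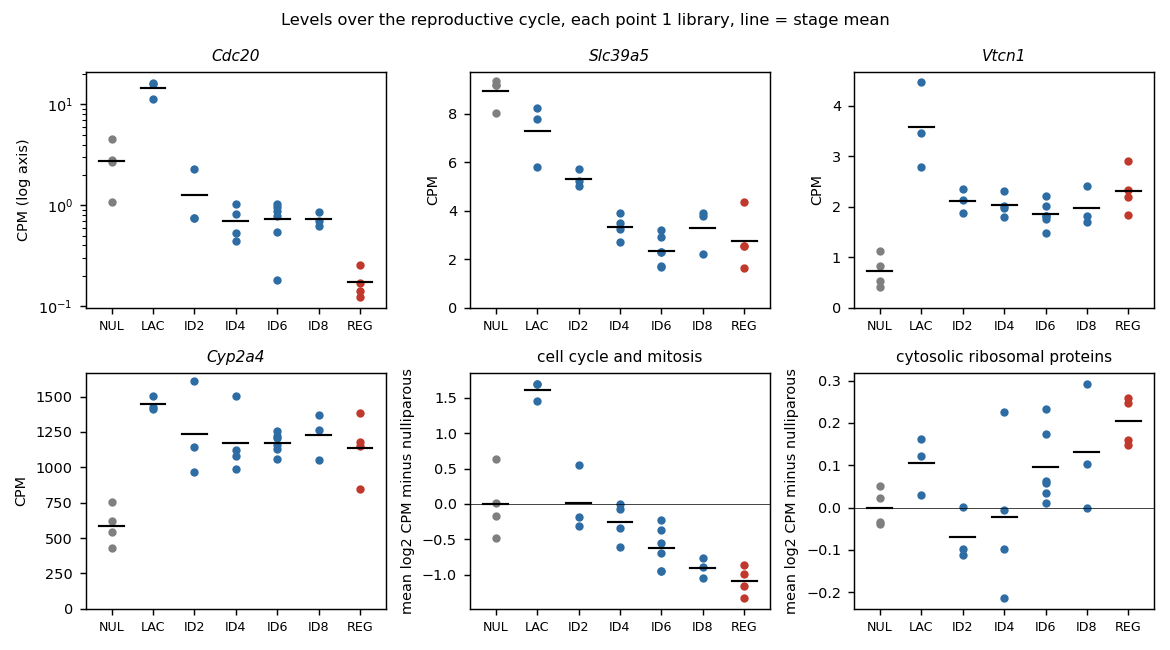
CPM of Cdc20 (log axis), Slc39a5, Vtcn1 and Cyp2a4 and list scores of the cell cycle and ribosomal protein genes at the 7 stages, with 1 point for each library and a line at the stage mean (NUL nulliparous, LAC lactation day 10, ID2 to ID8 days after weaning, REG 4 weeks after weaning). Vtcn1 and Cyp2a4 stay near their level after lactation, Slc39a5 is at 2.36 to 3.33 CPM from ID4 on, and Cdc20 is lowest at REG.

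Small shifts shared by many genes were sought in 44 lists of liver and immune processes. For each list the number of members on each side of 0 and the median log2 fold change are given, and no test was made over a list. The libraries' scores of the 2 groups did not overlap in 5 lists: the ribosomal protein and retinoid lists were higher in regressed liver, and the cell cycle, pericentral and zinc lists lower. The score is a mean, so a few members can carry it: the median log2 fold change was only 0.05 in the retinoid list and -0.02 in the zinc list, where Slc39a5, Slc39a2, Mt1 and Mt2 were the members below -0.9, Mt2 not without NUL_221.

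**Figure D4:**
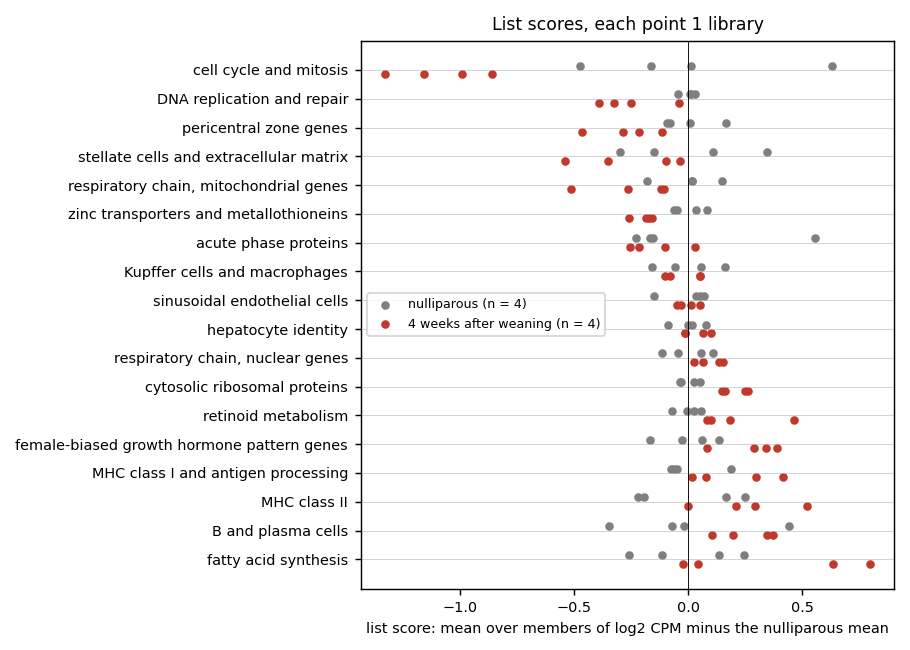
List scores of 18 lists, each point 1 library (grey nulliparous, red 4 weeks after weaning, n = 4 each). The cell cycle scores of the regressed libraries, -1.33 to -0.860, lie farthest from the nulliparous ones, and most other lists overlap.

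Cytosolic ribosomal protein genes, which encode the proteins of both ribosomal subunits, were all above 0. All 55 genes tested had a log2 fold change above 0, from 0.09 to 0.29, with a median of 0.20, while the median over all genes tested was 0.00. In 32 of the 55 the regressed libraries lay wholly above the nulliparous ones (2.03% of all genes tested). None was called in edgeR, DESeq2 or limma on log2(TPM + 1), and at an unadjusted p under 0.05 the 3 tools had 30, 29 and 38 higher (3.85% of all genes in edgeR). The list score was 0.0498, 0.0228, -0.0384 and -0.0342 against 0.247, 0.160, 0.147 and 0.260.

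The direction of the ribosomal genes was the same without each library, with 54 or 55 genes above 0, and their median ranged from 0.18 to 0.23. The number higher at an unadjusted p under 0.05 was less stable: it was 14 without NUL_226 or REG_203, 16 without REG_239, 19 without NUL_227, and 18 with upper-quartile scaling. These are short genes, with a median effective length of 489 bases, and length moved with the fold change over all genes: the median was 0.07 in the tenth of genes with the shortest effective length and -0.03 in the tenth with the longest. With the effective length as an offset all 55 ribosomal genes were above 0, the median was 0.197, and 28 were higher at an unadjusted p under 0.05. This offset takes up only differences between libraries in the effective length of the same gene. It cannot remove a trend between short and long genes, and the part of length in the ribosomal shift was not tested. Over the stages the mean score was 0.104 at LAC, -0.0697 at ID2, -0.0225 at ID4, 0.0963 at ID6, 0.131 at ID8 and 0.204 in the regressed group, the highest mean of the 7. Single libraries overlapped between stages, at 0.147 to 0.26 in the regressed group, 0.0116 to 0.234 at ID6 and -0.00109 to 0.293 at ID8.

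Nuclear genes of the respiratory chain, which makes ATP in mitochondria, and the 13 mitochondrial genes of the same complexes differed in sign. Of 58 nuclear genes 54 were above 0, with a median of 0.08 (0.05 without NUL_226) and no call (edgeR, DESeq2 and limma), and 3 passed an unadjusted p under 0.05, or 10 without NUL_220, 1 without NUL_226 and 10 in limma on log2(TPM + 1). Those 3 are 5.17% of the list, against 7.17% of all genes tested, and the scores overlapped (-0.117 to 0.107 against 0.0242 to 0.15). The nuclear score differed by -0.0278 between the 1-run libraries and by 0.172 between the 2-run libraries. These nuclear genes are short as well, with a median effective length of 490 bases. The tenth of all genes with the shortest effective length had a median of 0.07. Of the 13 mitochondrial genes 11 were below 0, with a median of -0.21, none called in edgeR or limma and 1 in DESeq2. mt-Cytb, of complex III, was at 7565, 6537, 7540 and 5083 CPM against 3054, 3878, 4257 and 4380 CPM, without overlap (-0.78 ± 0.18, edgeR adjusted p 0.0929). mt-Nd4, of complex I, stood at -0.46 ± 0.16 in log2 fold change (edgeR adjusted p 0.393). Mitochondrial genes held 4.00% to 5.17% of the counts of nulliparous libraries and 3.47% to 4.79% of regressed ones.

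Genes of the pericentral zone were mostly lower. Of 20 genes 19 were below 0, with a median of -0.28, and 0 were called in edgeR, DESeq2 or limma, with 4 lower at an unadjusted p under 0.05 (3.32% of all genes; 2 without NUL_227, 7 without REG_214). Lect2, a secreted protein of hepatocytes, was at 219, 198, 229 and 208 CPM against 164, 164, 145 and 169 CPM, without overlap (-0.41 ± 0.12, edgeR adjusted p 0.255). Glul, the glutamine synthetase of the last hepatocytes around the central vein, was at 620 to 865 against 525 to 677 CPM (-0.29 ± 0.10, edgeR adjusted p 0.464). The pericentral score was 0.00705, -0.0807, -0.0923 and 0.166 against -0.466, -0.117, -0.215 and -0.286. Of 18 periportal genes 12 were above 0, with a median of 0.10 (0.04 without REG_203, 0.06 without NUL_226, 0.17 without NUL_220) and overlapping scores (-0.0658 to 0.0743 against 0.0214 to 0.211). Their score differed by -0.0233 between the 1-run libraries and by 0.236 between the 2-run libraries. Pigr, the carrier of IgA into bile, was at 833 to 1061 against 1161 to 1285 CPM (0.38 ± 0.11, edgeR adjusted p 0.239).

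Stellate cell and extracellular matrix genes were mostly below 0, to an extent that depended on single libraries. Of 42 genes 35 were below 0, with a median of -0.28 (-0.18 without NUL_226, -0.175 on log2(TPM + 1)), and at an unadjusted p under 0.05, 16 were lower and 0 higher, against 3.32% and 3.85% of all genes tested. The 16 ranged from 3 without NUL_226, 6 without REG_203 and 9 without NUL_227 to 24 without NUL_221, and were 8 in limma on log2(TPM + 1) and 10 with the number of runs in the fit. Further, 1 of the 42 genes lay wholly lower in CPM, a share near the 1.67% of all genes tested. Col4a1, a chain of basement membrane collagen, was that gene, at 45.0, 43.8, 52.2 and 58.6 CPM against 34.0, 38.8, 39.4 and 40.6 CPM (-0.38 ± 0.10, edgeR adjusted p 0.130). Fbln5, an elastic fibre protein outside the list, was at 4.53 to 6.87 against 3.09 to 4.39 CPM (-0.69 ± 0.16, edgeR adjusted p 0.0727). The list's summed level was 1020 to 1290 against 1000 to 1150 TPM. Markers of sinusoidal endothelial cells had a median of 0.01, with a sign that differed between fits, and sums of 388 to 406 against 387 to 426 TPM.

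Fatty acid synthesis genes were mostly above 0, with overlapping scores (-0.261 to 0.245 against -0.0253 to 0.797). Of 20 fatty acid synthesis genes 19 were above 0, with a median of 0.43, none called in edgeR, DESeq2 or limma, and 4 higher at an unadjusted p under 0.05 (3.85% of all genes; 2 without NUL_226 or NUL_227, 7 without REG_214, 1 without REG_239, 2 in limma on log2(TPM + 1)). Dgat2, which makes triglycerides, was at 504, 347, 456 and 526 CPM against 689, 605, 472 and 556 CPM (0.34 ± 0.11, or 0.23 without NUL_221, edgeR adjusted p 0.342). Scd1, the stearoyl-CoA desaturase, was at 2538 to 4134 against 3063 to 9065 CPM (0.80 ± 0.38, or 0.44 without REG_239, edgeR adjusted p 0.690), so the groups overlapped for both. Acute phase protein genes had a median of -0.22, with 23 of 30 below 0, but -0.06 without NUL_221, and their scores overlapped (-0.230 to 0.556 against -0.257 to 0.0288). Hepatocyte identity genes had a median of -0.01, with a sign that differed between fits, and their summed level was 182000 to 202000 against 180000 to 203000 TPM. Within that list Cebpa and Foxa2, transcription factors of hepatocytes, were higher without overlap in CPM (0.47 ± 0.13 and 0.76 ± 0.21, edgeR adjusted p 0.248 and 0.255), while Foxa3, of the same family as Foxa2, was at -0.38 ± 0.16 (-0.25 without REG_234, edgeR adjusted p 0.614), and 11 of the 21 members were below 0.

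**Figure D5:**
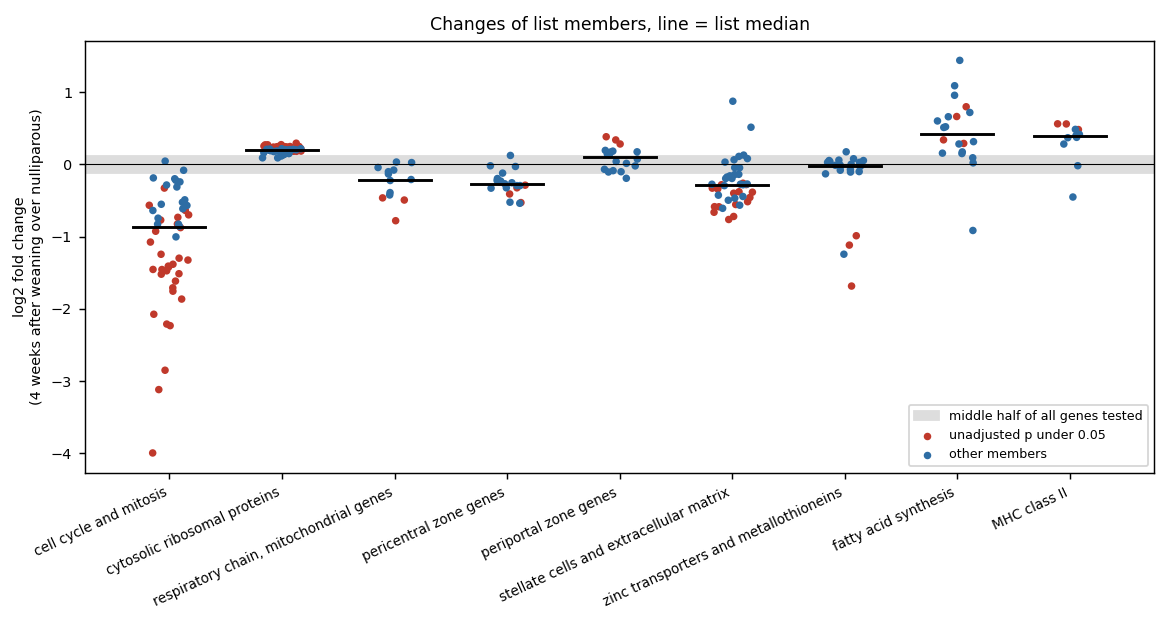
Log2 fold change, 4 weeks after weaning over nulliparous, of each member of 9 lists, with a line at the list median, a grey band for the middle 50% of all genes tested, and members at an unadjusted p under 0.05 in red. The ribosomal protein genes lie close together, from 0.09 to 0.29, while the cell cycle genes spread from -3.99 to 0.05.

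A rule on p, level and absence of overlap picked 20 further genes that missed the threshold, some of them described above, so the lack of overlap in these genes is set by the rule. The 10 that were higher were led by Hyi, a hydroxypyruvate isomerase, at 38.3 to 44.3 against 46.5 to 59.4 CPM (0.43 ± 0.09, edgeR adjusted p 0.0554), and Bdh2, a hydroxybutyrate dehydrogenase, at 2.81 to 4.08 against 4.89 to 7.83 CPM (0.82 ± 0.18, 0.0615). Crym, which binds thyroid hormone, was at 10.6 to 13.1 against 15.1 to 18.8 CPM. Neb, the giant thin-filament protein of muscle, was at 2.63 to 4.66 against 6.19 to 10.9 CPM, and Serpinb1a, an inhibitor of neutrophil proteases, at 1.45 to 2.98 against 3.16 to 5.04 CPM (each edgeR adjusted p 0.0727). Camk1d, Acad10 and Kxd1 had log2 fold changes of 0.44, 0.37 and 0.31.

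Of the 10 that were lower, Ephb6, an ephrin receptor, was at 3.74, 6.996, 7.35 and 6.40 CPM against 2.65, 1.84, 2.66 and 3.41 CPM (-1.21 ± 0.26, edgeR adjusted p 0.0615). Slc13a3, a transporter of dicarboxylates, was at 19.5 to 34.1 against 9.47 to 15.9 CPM (-1.16 ± 0.24, edgeR adjusted p 0.0709), and Fam25c at 18.7 to 49.4 against 12.2 to 18.03 CPM (-1.26 ± 0.27, 0.0709). Adamtsl2, a secreted matrix glycoprotein, Mthfd1l, a mitochondrial enzyme of folate metabolism, and Abhd3, a phospholipase, had log2 fold changes of -0.98, -0.74 and -0.31.

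Per the authors' readme, NUL_221, NUL_226, NUL_227 and REG_203 were sequenced in 2 runs and the other 4 libraries in 1 run, so runs and groups are partly confounded. Since the groups of the 14 called genes do not overlap, the direction within the 1-run libraries (NUL_220 against 3 regressed) and within the 2-run libraries (3 nulliparous against REG_203) is fixed, and the sizes are given as a description. In log2 CPM they were -4.16 and -3.19 for Cdc20, -1.83 and -1.78 for Slc39a5, 2.20 and 1.32 for Vtcn1, 0.94 and 1.25 for Cyp2a4, 0.66 and 1.63 for Rdh16f2 and 0.39 and 0.94 for H2-Q7. With the number of runs in the fit 13 genes were called, 12 of them among the 14, and Nek2 and Ddx11 were lost. List scores differed by -1.02 and -1.32 for the cell cycle list, 0.139 and 0.264 for ribosomal proteins, -0.213 and -0.463 for the pericentral list and -0.206 and -0.251 for the zinc list. They differed by -0.011 and -0.592 for the matrix list, 0.0269 and 0.714 for fatty acid synthesis, 0.101 and 0.435 for the female-biased list, 0.0961 and 0.469 for the retinoid list and 0.621 and 0.0788 for B and plasma cells, so in these 1 class differed far more than the other.

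Clock genes differed between animals. A score of day-phase minus night-phase clock genes was -2.07 to 0.222 in nulliparous and -0.813 to 1.67 in regressed libraries, and with this score in the fit 34 genes were called, including all 14. Acinar pancreas genes were low in both groups, with summed levels of 27.3 to 35.8 and 18.9 to 33.6 TPM, and 12 of 27, among them Prss1, Prss2 and Cel, were at 0 in all 8 libraries. The score of pancreatic islet genes was 3.45 in NUL_227, -1.29 to -0.886 in the other nulliparous libraries and -1.31 to 0.582 in regressed ones. Their median log2 fold change was -1.43, and it ranged from -4.22 without REG_234 to 1.55 without NUL_227. The labels call the animals of a group separate samples. The p-values rest on a spread between samples of a group that was estimated over all 27 libraries in 7 groups, not over these 8 alone.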

How the data were processed

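Liver RNA, taken up in Trizol, went through the NEBNext Ultra RNA kit, per the labels' protocols. Per the submitters' processing notes, STAR 2.6.1a and RSEM 1.3.1 were used with builds mm10 and GRCm38; the annotation, trimming and use of strand are not given in the sources used here, so overlapping and antisense genes are uncertain. Each gene's expected count was estimated by the authors, per the file headers, with no scaling across libraries. TPM and the effective length, an RSEM value in bases, are also the authors' deposited columns, per the file headers.

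Expected counts were rounded, and edgeR 4.0.16 was run in R 4.3.3. filterByExpr kept 16428 of 51826 genes, libraries were scaled by TMM, and all 27 libraries in 7 groups entered 1 robust quasi-likelihood fit; the main contrast was regressed minus nulliparous, two-sided, adjusted by Benjamini-Hochberg over all genes kept. SE was taken from the fitted change and its F statistic. Scores used log2 CPM with a prior count of 0.5. Symbols and positions came from GENCODE release M21 (GRCm38) by identifier, with 193 identifiers not found. Promoters came from RefSeq (GRCm38.p6).

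Genes named are all those called, then up to 10 in each direction by p among uncalled genes whose log2 CPM averaged 1 or more, a symbol that is not a placeholder and no overlap between groups, then the called members and up to 4 others by p of each list described, then paralogs and the zinc list. The members and lists were chosen with earlier results of these data known. Alternatives included DESeq2 1.42.0, limma 3.58.1 on log2 TPM, other scaling, filters and covariates. The script was tested on simulated data. No pair of libraries in a group was close to sampling noise.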

Additional observations from a re-analysis of the deposited data

Results flagged for a closer look

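The called genes, the further genes picked by the rule on p, level and overlap, and the list scores were examined in 156 groups of 4 values. Of these groups 12 (7.69%) had 1 library set apart from the other 3, where chance gives about 1 in 20. Slc39a5 was 8.03 CPM in NUL_227 and 9.16 to 9.34 in the other nulliparous libraries. Cdk1 was 0.616 CPM in REG_239 and 0.269 to 0.286 in the others. Serpinb1a was 2.98 CPM in NUL_220 (others 1.45 to 1.69), and Hamp2 was 342 CPM in the same library (others 108 to 133). Igkc was 15 CPM in REG_203 (others 7.62 to 8.13), and Mthfd1l was 2.73 CPM in REG_214 (others 3.41 to 3.43). Among list scores, growth hormone and STAT5 signalling was 0.605 in NUL_226 (others -0.255 to -0.153) and MHC class I 0.185 in NUL_220 (others -0.0744 to -0.0488). Acute phase proteins were at 0.556 in NUL_221 (others -0.230 to -0.157), and sinusoidal endothelial markers at -0.151 in the same library (others 0.0335 to 0.0666). The score of p53 target genes was -0.285 in REG_214 (others -0.148 to -0.123) and that of complement and coagulation 0.0339 in REG_234 (others -0.0725 to -0.0593).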

How the results depend on the processing

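The number of called genes, 14, was 69 with DESeq2, 1 when only the 8 libraries were fitted, 8 in limma with either pseudocount on TPM, 9 with the effective length as an offset, 34 with the clock score, 41 at an adjusted p under 0.10 and 6 at an adjusted p under 0.01. Without 1 library it ranged from 4 (REG_203) to 32 (NUL_220). With the median of ratios or upper quartiles for scaling, and without mitochondrial and the 20 most abundant genes, it was 14; with no filter it was 16, with a mean CPM of at least 1 it was 11, with the number of runs it was 13, and without robust estimation it was 17. Over the 65 genes named and their alternatives, 1303 values stayed on the same side of the threshold, 83 passed it only in the alternative, 84 only in the reported fit, and 16 changed sign, in Slc39a14 and Bub3, whose changes were near 0. Slc39a14, at 0.00, was -0.0033 with DESeq2, -0.0059 with the 8 libraries alone, -0.0033 with the median of ratios, -0.027 with upper quartiles, -0.0037 with a mean CPM of at least 1, -0.012 in limma with either pseudocount, -0.033 with the length offset, -0.0019 without the most abundant genes and -0.067 with the clock score, and it ranged from -0.028 to 0.030 without 1 library. Bub3, at 0.05, was -0.025 with the clock score and ranged from -0.061 to 0.127 without 1 library. Over all 253 genes of the naming rule and the text, most of them not named, 106 values changed sign in 39 genes, none of them among the 14 called. The median of the cell cycle list was -0.86, and -0.23 on log2(TPM + 1); the cause was not tested. No paired analysis was possible because no number in a title occurs in both groups. With 3 to 17 counts per regressed library for Cdc20, Hmmr and Arhgef39, depth limits the precision of their fold changes.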

Other observations

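Several groups of liver genes did not stand apart between the stages compared. Cholesterol synthesis genes had 12 of 24 members above 0 and a median log2 fold change of 0.01, whose sign differed between fits, and the scores of the groups overlapped (-0.225 to 0.360 in nulliparous and -0.316 to 0.230 in regressed libraries). Genes of the urea cycle and amino acid breakdown had a median of 0.07 (-0.01 without NUL_226, 0.18 without NUL_220), xenobiotic P450 genes -0.04, and bile acid genes -0.02, the last pair with a sign that differed between fits. In the last of these lists Slc10a1, the uptake transporter of bile acids, was at 460 to 590 CPM in nulliparous and 638 to 684 CPM in regressed libraries, without overlap, and missed the threshold (log2 fold change 0.34 ± 0.10, edgeR adjusted p 0.228).

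Interferon-stimulated genes had a median of 0.09 (-0.03 without REG_203 or NUL_221, -0.05 with the clock score, 0.19 without NUL_220), with 0 of 46 at an unadjusted p under 0.05 in edgeR and limma, 1 in DESeq2 and, without NUL_220, 4 in edgeR, and 0 called in these tools, and proteasome subunits a median of -0.04 (-0.01 without REG_234, -0.10 without REG_203), with 0 of 31 at an unadjusted p under 0.05 (3 lower without REG_203) and 0 called in the same tools. Myc, the growth-related transcription factor, was at 1.83, 2.50, 3.66 and 2.25 CPM in nulliparous libraries and at 1.89, 10.2, 26.1 and 9.56 CPM in regressed ones (2.22 ± 0.64, edgeR adjusted p 0.287), so that 3 of the 4 regressed libraries were above all nulliparous ones and REG_203 was not.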
